A study of Mus musculus with 12 samples.

Results

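Cytosolic ribosomal protein genes were followed in renal tubular epithelial cells (TECs) and in blood neutrophils (PMN) of mice with renal ischemia-reperfusion injury (IRI). The members were the gene symbols of both deposited count tables that begin with Rpl or Rps followed by a number, with at most a closing a, x or l, together with Rplp0, Rplp1, Rplp2 and Rpsa. These were 79 of the 50421 symbols that the tables share, 48 of the large and 31 of the small subunit. Of them, 7 carry the name of a second copy (Rpl3l, Rpl6l, Rpl10l, Rpl32l, Rpl39l, Rps4l and Rps27l) and 72 do not. Among these second copies, GENCODE annotates Rpl6l and Rpl32l as processed pseudogenes and Rps4l as a transcribed processed pseudogene. The rule used names and no measured value, though it was set with earlier results of these data known. Rpl10, Rpl39 and Rps4x were not analysed here.

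All 12 samples came from wildtype male C57BL/6J mice aged 8 to 12 weeks, in which both renal pedicles had been clamped for 35 minutes and cells were taken 24 hours after IRI. In each cell type 3 mice had received glutamine, given i.v. as the dipeptide alanyl-glutamine at 0.5 g/kg, and 3 had received the saline vehicle. The TECs were sorted from the kidney as CD45-negative, Prominin-1-positive cells. Every group had been through IRI, so the effect of the injury itself cannot be read from these data. The labels number the TEC vehicle libraries 3, 4 and 5 and the TEC glutamine libraries 1, 2 and 3, while the PMN libraries carry no replicate number and are numbered 1 to 3 here as names only. The paper's supplement places the dose of the TEC mice minutes after reperfusion. The comparison asked how glutamine was reflected in the RNA of the ribosome's own proteins.

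A ribosome consists of a small subunit, which holds the mRNA and reads its codons, and a large subunit, which joins the amino acids and lets the new chain leave through a tunnel. Each protein is present once per ribosome, apart from the stalk proteins P1 and P2, and each is encoded by a separate gene. Their mRNAs are short and abundant, and in mammals they begin with a C followed by a run of pyrimidines, the 5′ terminal oligopyrimidine (TOP) tract. Through this tract mTORC1, a kinase that responds to amino acids including glutamine, is known to control how strongly these mRNAs are translated. Ribosomal protein genes have also left many processed pseudogenes in the mouse genome, whose sequences are close to those of the parent mRNA.

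The stretch around the transcription start, where many of these genes carry a pyrimidine run, is shown for members that the results below turn on. Each sequence is read 5′ to 3′ from RefSeq on GRCm38.p6 and covers 30 bases before and 30 bases from the annotated start, in lower case. Capitals mark the longest run of at least 5 bases that starts with C, holds only C and T, and begins within 10 bases of the start. Rps6, Rps18, Rpl35, Rplp2 and Rpl38 hold such a run, Rpl4 holds none that begins so near the start, although pyrimidines stand further before it, and Rpl3l holds one of 5 bases at the far edge. A further annotated start of Rpl3l, not shown, holds no such run.
Rps6 (chr4:86857338-86857397, minus strand): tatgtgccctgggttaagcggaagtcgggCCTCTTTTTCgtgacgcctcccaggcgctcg
Rps18 (chr17:33955636-33955695, minus strand): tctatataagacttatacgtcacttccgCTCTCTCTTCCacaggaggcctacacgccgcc
Rpl35 (chr2:39005102-39005161, minus strand): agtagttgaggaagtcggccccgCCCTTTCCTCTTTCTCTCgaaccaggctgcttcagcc
Rplp2 (chr7:141447621-141447680, plus strand): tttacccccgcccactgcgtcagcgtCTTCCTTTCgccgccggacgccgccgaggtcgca
Rpl38 (chr11:114668550-114668609, plus strand): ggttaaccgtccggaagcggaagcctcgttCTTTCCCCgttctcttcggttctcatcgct
Rpl4 (chr9:64173357-64173416, plus strand): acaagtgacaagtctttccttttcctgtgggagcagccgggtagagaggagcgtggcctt
Rpl3l (chr17:24727796-24727855, plus strand): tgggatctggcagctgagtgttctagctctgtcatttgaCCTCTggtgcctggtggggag

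RefSeq start regions were at hand for 57 of the 79 members. The run was present in 34 of these 57, or 59.6%, against 29.8% of 27025 start regions of all symbols. Within the 250 bases before and 50 bases after the start, the letters CCGGAAG, a form of the ETS factor word, stood on one of the strands in 40.4% of members and 9.12% of all start regions. ATGGCGG, a form of the YY1 word, did so in 15.8% against 4.19%, and TATAAA, the TATA box, in 7.02% against 14.2%. CACGTG, the E-box bound by MYC, was as frequent in members as elsewhere, at 8.77% against 7.24%. Among the genes shown, Rps6, Rps18, Rpl35, Rplp2 and Rpl38 carry the ETS word and Rps18 the YY1 word, whereas Rpl4 and Rpl3l carry none of the 4 words. These matches describe letters, not bound factors.

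In TECs the ribosomal protein genes took a smaller share of all counts in every glutamine library than in any vehicle library. The share was 5.31%, 5.19% and 4.77% in vehicle libraries 3, 4 and 5 and 3.78%, 3.83% and 3.75% in glutamine libraries 1, 2 and 3. The mean was 5.09% ± 0.282 with vehicle and 3.79% ± 0.0439 with glutamine (SD, n = 3 each). The glutamine libraries lay close together and vehicle library 5 was the vehicle library nearest to them. Both subunits took part: the large subunit had 3.17% ± 0.236 with vehicle and 2.35% ± 0.0372 with glutamine, and the small subunit 1.92% ± 0.0475 and 1.44% ± 0.0164 (SD, n = 3 each). The share of predicted genes (symbols of the Gm, Rik and sensory receptor kind) lay between 17.5% and 23.3% with vehicle and between 26.3% and 30.8% with glutamine, and it is part of the same total. With these genes left out of the total, the ribosomal protein share was 6.43%, 6.56% and 6.22% with vehicle and 5.24%, 5.21% and 5.42% with glutamine, again without overlap. On library totals, the scale of these shares, the median log2 fold change of all TEC genes tested was itself -0.16 and that of the members -0.44, so that the members differed from the median gene by -0.27. In bulk cells fewer cells of a type and less RNA per cell cannot be told apart.

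In PMN the same genes took 1.65%, 1.61% and 2.31% of counts in vehicle libraries 1, 2 and 3 and 1.503%, 1.70% and 1.25% in glutamine libraries 1, 2 and 3. The groups overlapped, and the means of 1.86% ± 0.391 and 1.48% ± 0.222 (SD, n = 3 each) differed by less than the SD of the vehicle group. Vehicle library 3 was the highest library for 46 members and glutamine library 3 the lowest for 48. Without vehicle library 3 the difference of the mean shares shrank from -0.373 to -0.148 percentage points, and without glutamine library 3 to -0.258.

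**Figure D1:**
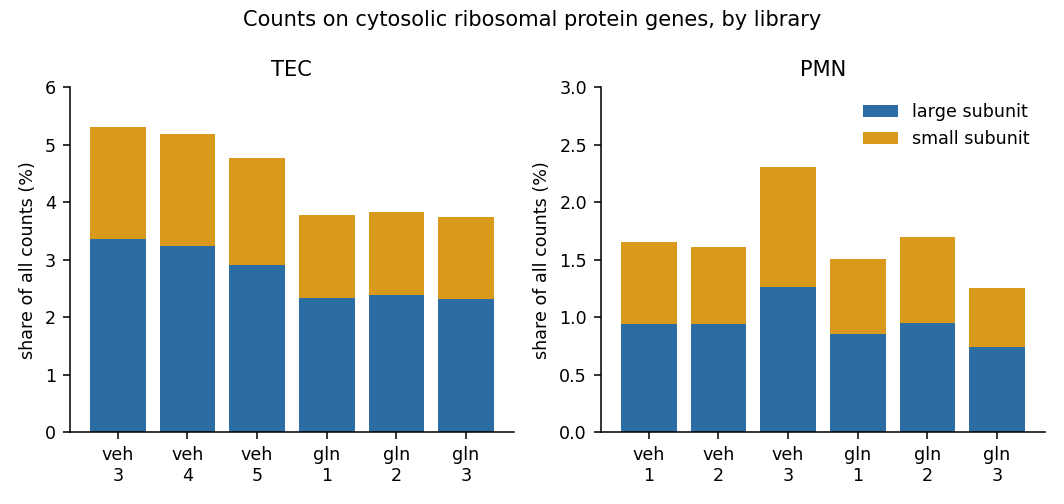
Share of all counts (vertical axis, percent) on ribosomal protein genes in each library (horizontal axis), large subunit in blue below and small subunit in yellow above. The TEC glutamine bars reach 3.75% to 3.83%, all below the vehicle bars at 4.77% to 5.31%, while the PMN groups overlap.

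The libraries behind these values differed in depth and evenness. TEC libraries held 5397370 to 10223461 counts and PMN libraries 20225246 to 21878446, and a member not named as a second copy had a median of 4822.5 counts per TEC library and 3608.5 per PMN library. Over the members, the correlation of log2 values between any 2 libraries was 0.978 to 0.993 in TECs and 0.905 to 0.969 in PMN. Over all genes with a count it was 0.953 to 0.974 and 0.699 to 0.773. Defining markers of each labelled cell type were present: the 13 neutrophil markers summed to 22082 to 73140 CPM (counts scaled to a common library size) in PMN and 103 to 256 CPM in TECs, where Elane was at 0. The 10 proximal tubule markers summed to 4399 to 7100 CPM in TECs and 20.6 to 92.3 CPM in PMN. The 6 markers of thick limb and distal tubule summed to 1183 to 2571 CPM in TECs, and in PMN to 1220 CPM in vehicle library 1, mostly Umod, against 5.14 to 37.9 CPM in the others. Other markers moved between libraries, and their part in the results was not tested. In TECs the 4 red cell markers in the table ranged from 802 to 6708 CPM and the 7 injured tubule markers from 2860 to 5609 CPM with vehicle and from 2759 to 3350 CPM with glutamine. Of these 7, 5 had a lower and 2 a higher mean with glutamine, and Havcr1, the kidney injury molecule, was the one that did not overlap, at 793, 541 and 106 CPM in the vehicle libraries and 94.1, 49.4 and 26.2 CPM in the glutamine libraries. The glutamine mean was higher for 9 of the 10 proximal tubule markers and all 6 thick limb and distal markers. Of these, Slc5a2, Slc22a6, Slc12a1 and Calb1 did not overlap, Slc22a6 lying at 200 to 271 CPM with vehicle and 324 to 425 CPM with glutamine. In PMN the 7 B cell markers summed to 0.501 to 2.64 CPM with vehicle and 33.4 to 47.9 CPM with glutamine, although the markers Ighd and Igkc were at 0 throughout. Also in PMN, the 10 endothelial markers reached 2868 CPM in vehicle library 2 alone, against 2.76 to 120 CPM in the others, and the 11 monocyte and macrophage markers lay between 7825 and 15454 CPM. The highest of these sums was in glutamine library 3, which had the lowest neutrophil sum and 3394 CPM of C1qb, a macrophage complement gene. Ptprc, which encodes CD45, had 564, 317 and 569 CPM in PMN vehicle libraries and 754, 819 and 1150.5 CPM in PMN glutamine libraries, without overlap. Of the 13 neutrophil markers 8 had a higher and 5 a lower mean with glutamine, and the gelatinase Mmp9 was the one without overlap, at 574, 553 and 525 against 1343, 743 and 1307 CPM.

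Gene by gene in TECs, nearly all members were lower with glutamine by a similar and small amount, and no single member passed the test. Of the 79 members 75 passed the expression filter, which needs enough counts in enough libraries. Among these 75, 72 had a lower estimate with glutamine and 3 a higher one, and the median log2 fold change was -0.27. Over all 14734 genes tested, 49.4% were lower and the median was 0.01. In 45 of the 75 members every glutamine library lay below every vehicle library on the CPM scale after TMM normalization, against 9.81% of all genes tested. The reverse held for 1 member against 9.01% of all genes. In edgeR's quasi-likelihood fit, adjusted by Benjamini-Hochberg over all genes, 0 members passed an adjusted p of 0.05, with 0% of all genes passing, and adjusted p-values of members ran from 0.224 to 0.988. At an unadjusted p below 0.05, 12 members were lower, against 5.51% of all genes, and 1 was higher, against 7.23%. DESeq2's Wald test called 1 member, Rpl17, against 2.09% of all genes.

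The spread within groups was small for these genes. The coefficient of variation of a member between the libraries of one group had a median of 10.3% with vehicle and 7.55% with glutamine, against 27.3% and 27.1% over all TEC genes tested. Fold changes of the 72 members not named as second copies had an SD of 0.16 among themselves, and the median standard error of one of them was 0.18. That standard error is moderated towards a trend of spread with expression level, fitted over all genes. Whether members spread less than other genes of their level was not tested. With any 1 of the 6 libraries left out, between 68 and 72 members were lower, with medians from -0.28 to -0.24, but the members lower at an unadjusted p below 0.05 numbered between 4 and 14. They numbered 4 without glutamine library 1, vehicle library 3 or vehicle library 4, against 4.86%, 3.11% and 2.94% of all genes in these fits, and 6 without glutamine library 2, against 3.37%. In the first 3 of these fits the members' count was near the background. The higher counts, up to 14, came without glutamine library 3 or vehicle library 5, where 5.98% and 7.68% of all genes were lower at this threshold.

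**Figure D2:**
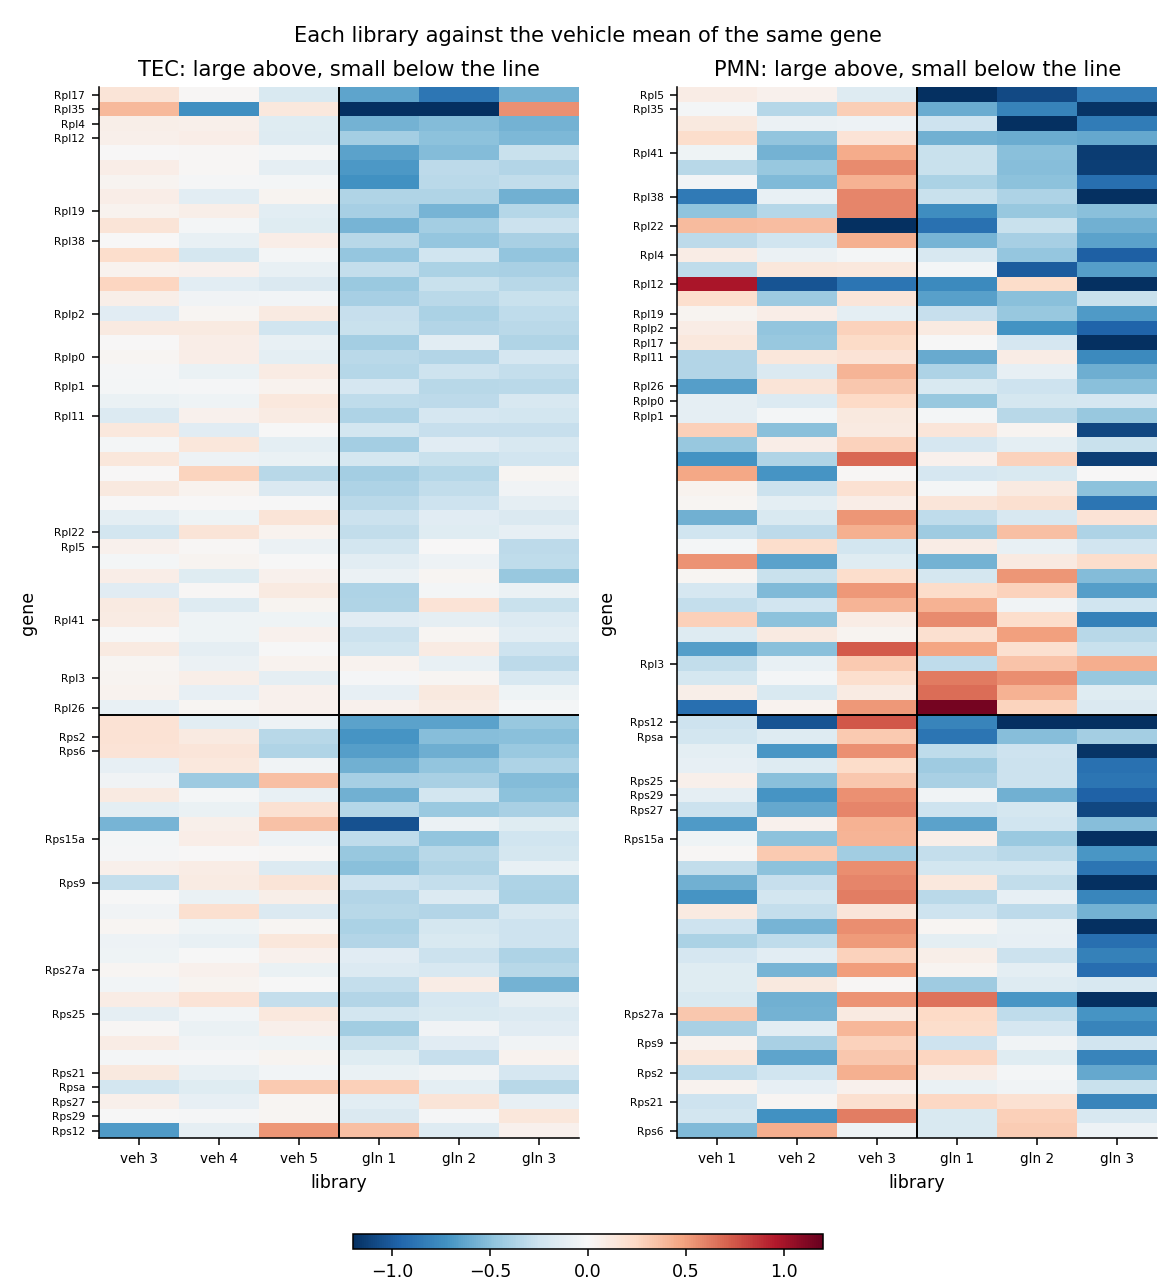
Value of each member (rows) in each library (columns) as log2 of its CPM over the mean CPM of the vehicle libraries of that cell type, with colours held at -1.2 and 1.2. Rows run from the lowest to the highest log2 fold change within each subunit, with names at some of the genes described. The TEC glutamine columns are blue for most rows, whereas the PMN columns differ between libraries of one group, with vehicle library 3 red and glutamine library 3 blue for most small subunit genes.

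Among the proteins of the large subunit, those that line the exit tunnel and its mouth held the member with the smallest p in TECs. Rpl17, which reaches into the tunnel wall, had 817, 744 and 647 CPM after vehicle and 475, 404 and 497 CPM after glutamine, without overlap. Its log2 fold change was -0.68 ± 0.19 (SE, edgeR adjusted p = 0.224) and its adjusted p in DESeq2's Wald test was 0.0449. Rpl4, which forms the narrowest part of the tunnel together with Rpl17, had 433, 431 and 373 CPM under vehicle against 278, 287 and 278 CPM under glutamine, without overlap. Its log2 fold change was -0.55 ± 0.18 (SE, edgeR adjusted p = 0.257). Rpl19, which helps to bridge the subunits, had 508, 520 and 453 CPM in the vehicle libraries and 374, 336 and 390 CPM in the glutamine libraries, again without overlap. Rpl22, an RNA-binding protein near the tunnel exit, overlapped at 324 ± 42.8 and 287 ± 19.7 CPM (SD, n = 3 each). Rpl26, at the same exit, was one of the 3 members with a higher estimate: it had 749, 811 and 827 CPM after vehicle and 825, 851 and 782 CPM after glutamine, which overlap. Of the 8 tunnel and exit genes (Rpl4, Rpl17, Rpl19, Rpl22, Rpl23a, Rpl26, Rpl31 and Rpl35), 7 were lower and the median log2 fold change was -0.35. Over all tested members these were 72 of 75 and -0.27. The group's median includes Rpl35 at -0.56, which stood at -0.26 with its near-identical copies, described below, added. With copies added, the middle values of the 8 genes were -0.27 for Rpl31 and -0.26 for Rpl35. The median of all tested members was then -0.26, so the group no longer stood apart from them.

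The stalk is the flexible arm of the large subunit that brings in the translation factors, with Rplp0 as its base and pairs of Rplp1 and Rplp2 as its tip. In TECs the 3 stalk genes were lower by nearly the same amount. Rplp0 had 821, 850 and 744 CPM under vehicle against 644, 629 and 699 CPM under glutamine. Rplp1 had 1639, 1642 and 1707 CPM in the vehicle libraries and 1443, 1323 and 1327 CPM in the glutamine libraries. Rplp2 had 682, 764 and 807 CPM after vehicle and 620, 577 and 608 CPM after glutamine. None of the 3 groups of values overlapped, their log2 fold changes lay between -0.32 and -0.29 and their adjusted p-values in edgeR between 0.483 and 0.520.

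Rpl5 and Rpl11 enter the large subunit together with the 5S rRNA and, when free of it, are known to bind Mdm2, the ligase that keeps p53 low. In TECs Rpl11 had 633, 734 and 759 CPM under vehicle against 550, 617 and 610 CPM under glutamine, which do not overlap. Rpl5 had 832, 812 and 762 CPM in the vehicle libraries and 687, 803 and 645 CPM in the glutamine libraries, which do. Their log2 fold changes were -0.26 and -0.17, with standard errors of 0.18 for both.

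Further large subunit genes differed in how far the groups lay apart. Rpl12, at the base of the stalk, had 499, 505 and 430 CPM after vehicle and 361, 340 and 329 CPM after glutamine, a log2 fold change of -0.48 ± 0.18 (SE, edgeR adjusted p = 0.323). Rpl38, a small protein known for its part in translating Hox mRNAs, had 1142, 1070 and 1203 CPM in the vehicle libraries and 905, 826 and 872 CPM in the glutamine libraries. In both genes no glutamine library reached a vehicle library. Rpl41, the shortest member with 25 amino acids, had means of 1709 ± 106 and 1557 ± 27.2 CPM after vehicle and glutamine (SD, n = 3 each), without overlap but with a log2 fold change of only -0.13. Rpl3, which lies close to the site of peptide bond formation, overlapped at 434 ± 28.5 and 416 ± 33.0 CPM (SD, n = 3 each).

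In the small subunit of TECs 30 of the 31 members were lower and the median log2 fold change was -0.28, against 42 of the 44 tested large subunit members and a median of -0.27. Rps2, where the mRNA enters, had 113, 108 and 79.2 CPM under vehicle against 61.1, 70.1 and 70.7 CPM under glutamine, without overlap and with a log2 fold change of -0.57 ± 0.21 (SE, edgeR adjusted p = 0.311). With its near-identical copies, described below, added to Rps2 the log2 fold change was -0.38. Rps18, in the head of the subunit, had 238, 278 and 247 CPM after vehicle and 170, 183 and 197 CPM after glutamine, also without overlap. Rps6, whose protein is phosphorylated by the S6 kinases downstream of mTORC1, had 545, 539 and 379 CPM in the vehicle libraries and 309, 324 and 359 CPM in the glutamine libraries. Vehicle library 5 was thus much nearer to the glutamine libraries than to the other vehicle libraries, though the groups did not overlap. The log2 fold change of Rps6 was -0.56 ± 0.21 (SE, edgeR adjusted p = 0.306). These values are RNA levels and carry no information on phosphorylation.

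Of the 31 small subunit members 16 separated the groups in the lower direction in TECs, against 9.81% of all genes, and others overlapped. Rpsa, also known as the laminin receptor precursor, had 1318, 1388 and 1907 CPM after vehicle and 1876, 1416 and 1218 CPM after glutamine. Rps27 had 659 ± 38.6 and 652 ± 71.1 CPM, Rps29 738 ± 11.6 and 732 ± 78.2 CPM and Rps21 584 ± 45.2 and 543 ± 32.2 CPM with vehicle and glutamine (SD, n = 3 each). Rps12 was among the lowest members, with 40.2, 60.01 and 93.2 CPM under vehicle against 82.6, 57.8 and 66.7 CPM under glutamine, and had a higher estimate of 0.10 (standard error 0.30). The groups of Rps9, which with Rps2 and Rps3 surrounds the mRNA entry, overlapped at 1049 ± 167 and 851 ± 35.3 CPM (SD, n = 3 each). Rps15a had 439 ± 23.1 and 348 ± 27.8 CPM and Rps25, which is needed by some viral internal entry sites, 815 ± 69.8 and 713 ± 13.6 CPM (SD, n = 3 each), both without overlap. Rps27a, which is made as a fusion with ubiquitin, had 655, 670 and 611 CPM in the vehicle libraries and 578, 566 and 512 CPM in the glutamine libraries, without overlap.

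Of the second copies, only Rpl3l, Rps4l and Rps27l passed the filter in either cell type. Rpl3l, the version of Rpl3 known from heart and skeletal muscle, was the only one of the 75 tested members whose glutamine libraries in TECs all lay above the vehicle libraries. Vehicle libraries held 19, 10 and 22 counts of it and glutamine libraries 39, 19 and 49, or means of 1.67 ± 0.696 and 4.62 ± 0.780 CPM (SD, n = 3 each). The log2 fold change was 1.47 ± 0.59 (SE, edgeR adjusted p = 0.340), at a level far below the 434 ± 28.5 CPM of Rpl3. Rps27l, known as a target of p53, had 234, 203 and 203 CPM after vehicle and 132, 160 and 186 CPM after glutamine in TECs, which do not overlap. In PMN it had 117, 115 and 171 CPM under vehicle against 60.4, 84.1 and 60.7 CPM under glutamine, also without overlap. The log2 fold changes were -0.42 ± 0.20 (SE, edgeR adjusted p = 0.414) in TECs and -0.98 ± 0.50 (SE, edgeR adjusted p = 1.0) in PMN. Its partner Rps27 did not separate the groups in either cell type. Rps4l had 33 to 78 counts in TEC libraries and between 0 and 641 in PMN libraries. Rpl10l and Rpl39l, known from the testis, had 0 counts in all 12 libraries, which allows at most 0.0564 CPM in TECs and 0.0239 CPM in PMN over the 6 libraries of each, for counting error only. Rpl6l and Rpl32l had 10 and 14 counts in all TEC libraries together and 2 and 13 in all PMN libraries.

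In PMN most members also had lower estimates with glutamine, but the libraries of one group differed from each other more than the groups did. Again 75 members were tested, of which 63 were lower and 12 higher, at a median log2 fold change of -0.33 against 0.00 over all 10130 genes tested, of which 50.0% were lower. No overlap in the lower direction was seen in 12 members, against 4.63% of all genes, and in the higher direction in 0 members, against 5.87%. By edgeR's quasi-likelihood test 0 members passed an adjusted p of 0.05, as did 0% of all genes. At an unadjusted p below 0.05 there were 0 members in either direction, against 1.37% of all genes lower and 2.04% higher. DESeq2's Wald test called 0 members, against 2.34% of all genes, with 5 members lower at an unadjusted p below 0.05, against 4.18% of all genes. In the small subunit 30 of 31 members were lower and in the large subunit 33 of 44. Both libraries numbered 3 bore on this. Without vehicle library 3 the number of lower members was 49 and the median -0.12, and without glutamine library 3 it was 51 and the median -0.19. The median of all genes was 0.04 and -0.09 in these fits, so that members differed from it by -0.16 and -0.09, in place of -0.33 with all libraries. The coefficient of variation of a member within a group had a median of 30.5% with vehicle and 25.8% with glutamine, against 81.5% and 77.3% over all PMN genes tested.

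The 6 members with the smallest p in PMN were Rpl35, Rps27l, Rpl4, Rpsa, Rpl19 and Rps12. Rpl35, which sits at the tunnel exit where emerging chains meet the signal recognition particle, had 269, 215 and 333 CPM in the vehicle libraries and 180, 156 and 120 CPM in the glutamine libraries, without overlap. Its log2 fold change was -0.84 ± 0.37 (SE, edgeR adjusted p = 1.0). Rpl4 had 770, 687 and 712 CPM after vehicle and 631, 525 and 367 CPM after glutamine. Rpl19 had 444, 460 and 402 CPM under vehicle against 360, 319 and 272 CPM under glutamine. Both were therefore without overlap in PMN as well as in TECs. Rpsa had 294, 307 and 426 CPM in the vehicle libraries and 187, 240 and 259 CPM in the glutamine libraries in PMN, without overlap, whereas it overlapped in TECs. Rps12 overlapped at 78.1, 45.1 and 155 CPM after vehicle and 53.4, 36.3 and 33.7 CPM after glutamine. Rplp0 was without overlap in PMN at 934 ± 146 and 768 ± 74.0 CPM (SD, n = 3 each), while Rplp1 and Rplp2 overlapped. Rpl5 was low in PMN, at 32.8, 32.1 and 27.9 CPM under vehicle against 4.58, 14.6 and 17.4 CPM under glutamine, without overlap and with a wide standard error of 1.22 about a log2 fold change of -1.35. With its near-identical copies added the groups of Rpl5 overlapped, and the log2 fold change was -0.90. Rps6 had 389, 756 and 535 CPM in the vehicle libraries and 494, 690 and 537 CPM in the glutamine libraries, which overlap, and Rpl3 had 362 ± 79.7 and 414 ± 106 CPM (SD, n = 3 each).

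**Figure D3:**
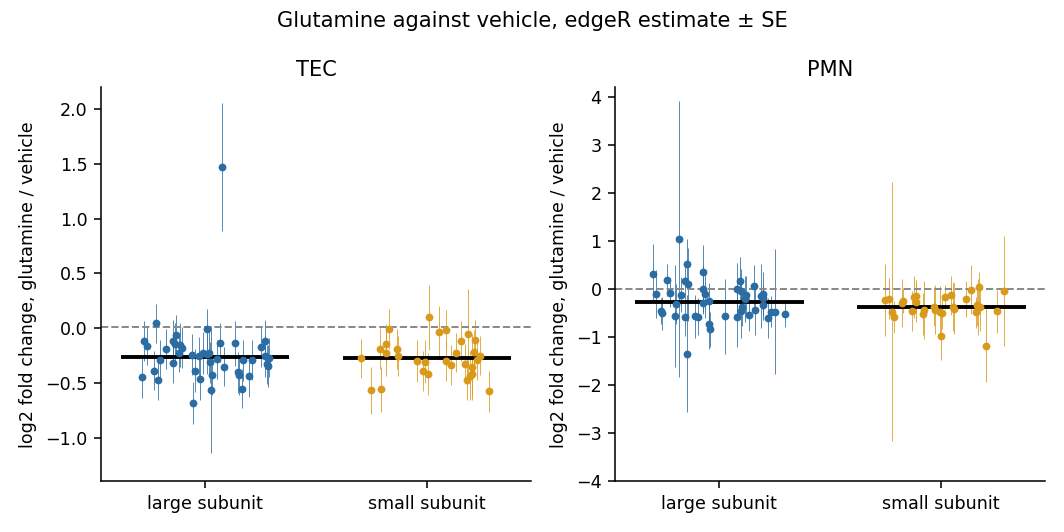
Log2 fold change of glutamine over vehicle for each tested member (points, edgeR estimate with its standard error as bars), by subunit and cell type, with the median as a black line and the median of all genes tested as a dashed line. The TEC medians are -0.27 and -0.28 and the PMN medians -0.27 and -0.37 for large and small subunit, and the PMN axis spans a wider range.

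Whether glutamine acted on the members to a different extent in PMN and TECs was tested as the difference of the fold changes in 1 edgeR model. Of the 75 members tested, 0 had an adjusted p below 0.05 and 0 an unadjusted p below 0.05, against 0.0996% of the 17074 genes passing the adjusted threshold and 14.1% the unadjusted one. The alternative with limma-voom also gave 0 members at either threshold. The smallest p was that of Rpl5, with a difference of -1.11 ± 0.56 (SE, edgeR adjusted p = 0.425) for PMN minus TEC. The near-identical copies of Rpl5, described below, held 86.4% of the counts of gene and copies in PMN. The model used 1 spread per gene for both cell types, though the biological coefficient of variation was 0.367 in TECs and 1.40 in PMN. For Rpl5 the standard error was 0.56, against 1.22 in the PMN fit alone, and for Rpl35 0.90 against 0.37. The p-values of this test are therefore uncertain. With the spread seen in PMN the lack of calls does not show that the cell types respond alike. Of the 72 members not named as second copies, 70 were lower in TECs, 61 in PMN and 59 in both. With nearly all lower in TECs, the count for both mostly follows that of PMN. The share of all genes lower in both was not counted. The fold changes in the 2 cell types had a Spearman correlation of -0.01 across these 72 genes, which share libraries and are not independent replicates.

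The balance of the subunits did not differ between the groups beyond their spread. Per library, large over small subunit counts in TECs came to 1.73, 1.66 and 1.56 under vehicle against 1.60, 1.66 and 1.64 under glutamine, means of 1.65 ± 0.0858 and 1.63 ± 0.0281 (SD, n = 3 each). In PMN it was 1.33, 1.40 and 1.21 with vehicle and 1.31, 1.28 and 1.45 with glutamine, means of 1.31 ± 0.0982 and 1.35 ± 0.0905 (SD, n = 3 each). In both cell types the groups overlap. All 6 TEC ratios lay above all 6 PMN ratios, a difference between tables that also differ in sequencing and depth.

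Although each protein is needed once per ribosome, the level of counts per kilobase of transcript differed widely between members. Lengths were the median of the protein-coding transcripts of a gene in GENCODE M21 on GRCm38. In TECs the 72 members not named as second copies ranged from 68.9 to 3109 CPM per kilobase with a median of 692, and in PMN from 10.5 to 947 with a median of 264. The highest in TECs were Rpl41 (3109), Rplp1 (3047), Rpl38 (2745), Rps27 (1897) and Rps29 (1882 CPM per kilobase). In PMN Rps9 (947), Rps27 (933), Rps25 (829) and Rpl41 (745 CPM per kilobase) were among the highest. Among members with a count and an annotated length, the lowest in TECs were Rpl3l (2.53), Rpl35 (68.9) and Rps15a (77.2), and in PMN Rpl3l (3.41), Rpl5 (10.5) and Rpl22 (14.8 CPM per kilobase). For Rps15a the annotated median length of 5130 bases, against a coding length of 390, sets much of this rank. Across the 72 genes the Spearman correlation of CPM with transcript length was -0.08 in TECs and 0.20 in PMN, given as a description.

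Members were on average higher in TECs, yet their order was only weakly shared. The mean over the 6 libraries of a cell type, as CPM of the library total, was higher in TECs for 66 of the 72 members, with a median ratio of 2.84. In 46 members every TEC library exceeded every PMN library, and in 2 members, Rps2 and Rpl35, the reverse held. Both of these are affected by near-identical copies, as given below. The share of all genes that separate the cell types was not counted, so these counts have no background beside them. The Spearman correlation of the 2 levels was 0.16 across the 72 genes. The furthest above in TECs were Rpl5, with 759 against 21.4 CPM and a ratio of 35.5, Rps21, with 565 against 21.3 CPM and a ratio of 26.6, and Rpl12, with 415 against 19.3 CPM and a ratio of 21.6. The furthest above in PMN were Rps2, with 386 against 84.8 CPM and a ratio of 4.55, Rpl35, with 209 against 65.2 CPM and a ratio of 3.20, and Rpl4, with 604 against 351 CPM and a ratio of 1.72. Cell type, preparation and sequencing run differ together between the tables and cannot be told apart.

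Several of these extremes lay in genes whose reads can be assigned to a near-identical copy. Other symbols in the tables were taken as copies when at least 50% of the 31-base words of a transcript also occur in a member's mRNA. There were 264 such symbols for 65 members, 169 of them predicted genes and most annotated as processed pseudogenes. In TECs the copies of Rps2 held 89.3% of the counts of gene and copies together, those of Rpl35 85.3%, those of Rpl9 69.6% and those of Rpl36 63.1%. In PMN the copies of Rpl5 held 86.4%, those of Rpl12 68.0% and those of Rpl27a 50.3%. With the copies added, Rps2 had 789 CPM in TECs and Rpl35 442 CPM, and Rpl5 had 157 CPM in PMN and Rpl12 60.3 CPM. Rps2 and Rpl35 were then no longer higher in PMN, and the members higher in PMN numbered 4 in place of 6, Rpl4, Rps6, Rplp0 and Rps12. The Spearman correlation of the levels was then 0.26 in place of 0.16. Rps21, without such a shift, kept a ratio of 26.6 and Rpl38 one of 17.3. The levels of Rps2, Rpl35, Rpl9 and Rpl36 in TECs and of Rpl5, Rpl12 and Rpl27a in PMN are therefore uncertain.

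**Figure D4:**
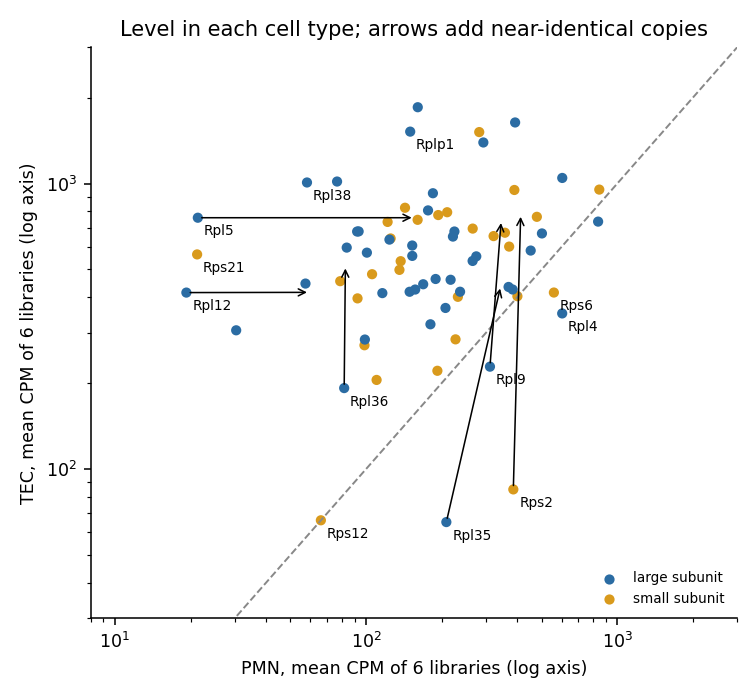
Mean CPM of each member over the 6 PMN libraries (horizontal) and the 6 TEC libraries (vertical), both on log axes, with equal levels on the dashed line. Arrows lead to the level with near-identical copies added, as for Rps2, which moves from 84.8 to 789 CPM in TECs, and Rpl5, which moves from 21.4 to 157 CPM in PMN.

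With the copies summed into their members before the fit, 72 of 75 members were lower in TECs, the median log2 fold change was -0.26 and 44 members were without overlap in the lower direction, against 9.82% of all genes. Rps2 with its copies had 862, 944 and 849 CPM after vehicle and 722, 634 and 689 CPM after glutamine, a log2 fold change of -0.38 ± 0.18 (SE, edgeR adjusted p = 0.413). Rpl35, which overlapped widely in TECs at 101, 46.5 and 84.5 CPM under vehicle against 16.7, 26.5 and 113 CPM under glutamine, had 512, 447 and 481 CPM in the vehicle libraries and 403, 442 and 359 CPM in the glutamine libraries once its copies were added, which do not overlap. Rpl36 went the other way, from a log2 fold change of -0.29 without overlap to -0.10 with overlap, at 535, 514 and 565 CPM after vehicle and 456, 569 and 484 CPM after glutamine. In PMN Rpl5 with its copies had 250.1, 136 and 235 CPM after vehicle and 44.3, 149 and 139 CPM after glutamine, which overlap. In PMN Rpl35 with its copies had 440, 372 and 549 CPM after vehicle and 266, 269 and 203 CPM after glutamine, a log2 fold change of -0.88 ± 0.31 (SE, edgeR adjusted p = 1.0). In the PMN fit of this kind 65 of 75 members were lower and 11 were without overlap in the lower direction, against 4.64% of all genes. The 268 pseudogene symbols named after ribosomal proteins took 0.347% ± 0.0372 of counts in TEC vehicle libraries and 0.247% ± 0.00480 in TEC glutamine libraries (SD, n = 3 each), lower in every glutamine library as well.

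Members with and without the pyrimidine run differed little in TECs. The 31 tested members with a run had a median log2 fold change of -0.32 and the 23 without one of -0.24, with 29 and 22 of them lower. In PMN the medians were -0.37 and -0.30, with 23 of the 31 and 22 of the 23 lower. Medians and counts thus ran opposite ways there.

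For other genes of translation in TECs, the counts at an unadjusted p below 0.05 stand against 5.51% of all genes lower and 7.23% higher. Ribosomal and ribosome-related genes that the name pattern misses (Rps3a1, Fau, Rpl36al, Rpl22l1 and Rpl7l1 among them) were all 6 lower in TECs, at a median of -0.23, and Rpl36al was the 1 with an unadjusted p below 0.05. Of 8 tested elongation genes 7 were lower, with a median of -0.32 and 2 at an unadjusted p below 0.05. Among them Eef1a1, which brings aminoacyl-tRNA to the ribosome and whose mRNA is also a TOP mRNA, had 1461, 1330 and 1295 CPM under vehicle against 878, 922 and 1192 CPM under glutamine, without overlap. Its log2 fold change was -0.45 ± 0.20 (SE, edgeR adjusted p = 0.375). Eef2, the translocase, had the one higher estimate of 0.12. Of 27 initiation genes 15 were lower and 12 higher, with a median of -0.02 near that of all genes, 3 lower and 1 higher at an unadjusted p below 0.05. Of 28 ribosome assembly genes 20 were lower, with a median of -0.12, 5 lower and 1 higher at an unadjusted p below 0.05. Bop1, a factor in maturation of the large subunit rRNA, had 26.7, 23.2 and 24.6 CPM in the vehicle libraries and 12.01, 7.03 and 12.4 CPM in the glutamine libraries, a log2 fold change of -1.23 ± 0.30 (SE, edgeR adjusted p = 0.208). Of 20 genes that tie translation to nutrients 11 were lower and 9 higher, with 6 lower and 1 higher at an unadjusted p below 0.05. Eif4ebp1, the mTORC1 target that blocks cap-dependent initiation, had 124, 119 and 106 CPM after vehicle and 74.5, 70.1 and 54.5 CPM after glutamine, a log2 fold change of -0.81 ± 0.21 (SE, edgeR adjusted p = 0.212). No gene of these lists passed the adjusted threshold in TECs. In PMN the medians of these lists lay between -0.36 and 0.01, and no gene of them passed the adjusted threshold either. The genes that the name pattern misses had the median of 0.01, with 2 lower and 4 higher, against -0.33 for the PMN members.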

How the data were processed

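RNA-seq of TECs and PMN was taken from 2 tables of Salmon estimated counts for gene symbols, which the authors deposited without normalization. The submitters' processing notes name Salmon 1.0.0, Trim Galore 0.6.4, DESeq2 and build mm10. The PMN table had passed through a spreadsheet program: 3.20% of its cells carried extra points and 0.391% had become dates, among the members 587 and 2 of 948 cells, which were decoded. The 2 columns of a PMN library were averaged, and estimated counts were rounded. Members and gene lists were chosen with earlier results of these data known. The main test was edgeR 4.0.16 (quasi-likelihood, TMM, default filter, Benjamini-Hochberg over all genes) per cell type in R 4.3.3. DESeq2 1.42.0, limma 3.58.1, other scalings, filters and fits without 1 library were alternatives. The tests of glutamine against vehicle within a cell type were tried on simulated data. The test of the difference between the cell types was not. CPM of single libraries follow TMM unless given as library totals. The library names give all PMN libraries the same opening code and number the TEC libraries in sequence, with each group in a block. Beyond that nothing says whether libraries share handling, so p-values measure only the spread between these samples. Upper limits for genes at 0 counts cover counting error only. Named genes were the 6 members with the smallest p, the 5 highest and 3 lowest per kilobase in each cell type, the 3 most different in level each way between cell types, and the stalk, 5S, second-copy, Rps6, Rpsa and Rps27a genes. Rps18, Rpl9, Rpl26, Rpl27a, Rpl36 and the genes outside the members were named after their values were seen, as were the groups of members by role. Some genes that this rule names are not reported here.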

Additional observations from a re-analysis of the deposited data

How the results depend on the processing

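No paired analysis was possible because number 3 is the single replicate label common to both TEC groups, and PMN labels give none. DESeq2's Wald test called 1 TEC member in place of 0, and 308 TEC and 237 PMN genes in all in place of 0. With no expression filter edgeR called 425 TEC genes, none of them members, and without glutamine library 2 or vehicle library 5 it called 36 and 4 TEC genes. The median log2 fold change of TEC members was -0.22 when the TMM factors were taken without predicted, Rik and sensory receptor genes, and -0.44 with library totals alone, a setting chosen after seeing the data. With library totals the median of all TEC genes was itself -0.16, and members differed from it by -0.27, against -0.28 in the reported fit, while 43 members rather than 12 were lower at an unadjusted p below 0.05, against 11.1% rather than 5.51% of all genes. Leaving out 1 library at a time, TEC members called were 0 each time, the number lower lay between 68 and 72, the median between -0.28 and -0.24 and the difference of shares between -1.46 and -1.19 percentage points. In PMN these were 0, 49 to 67, -0.46 to -0.12 and -0.495 to -0.148 percentage points. The other 140 values for the results that answer a comparison stayed within 1.5 times the reported count or within 1 SD of the reported value. Shares without mitochondrial genes in the total were not run. Members at a few counts, such as Rpl3l, are limited by depth.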
